A study of Mus musculus with 6 samples.

Results

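Scavenger and myeloid genes that endothelial cells and macrophages can share were followed in RNA of sorted mouse brain endothelial cells and of the Input fraction of brain. The 7 genes Stab1, Dab2, Cd36, Cd14, Lyz2, Cybb and Maf were taken by symbol from the deposited table of 10989 genes, and all 7 were found there and tested. The 3 Positive libraries are the sorted fraction, for which the protocol gates endothelial cells as EGFP positive, CD31 positive and CD11b negative, and the 3 Input libraries are labelled brain, fraction Input, with no further account of their preparation; a second gate, for putative microglia, is described in the protocol and was not analysed here. Both fractions come from mice labelled Tie2-cre+; NuTRAP+, whose titles also carry WT, and each fraction has the replicate numbers 1222, 1223 and 1227. The series text calls the replicates biological, and neither the age nor the sex of the mice is given in the sources used here. NuTRAP is a reporter that puts EGFP on ribosomes and mCherry on nuclei once Cre has acted, and Tie2-cre is driven by the promoter of Tek, which is active in endothelial cells and is also known to drive Cre in part of the blood cell lineage. Both fractions therefore share the driver and the reporter.

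Scavenger receptors bind modified lipoproteins, sugars and cell debris at the surface and carry them into the endosome, a task that sinusoidal endothelial cells and macrophages share. Innate myeloid genes act beside them: Cd14 passes bacterial lipopolysaccharide to its receptor, Lyz2 cuts bacterial cell walls and Cybb makes superoxide. In the brain, macrophages along the vessels and in the meninges are known for scavenger receptors, whereas microglia of the parenchyma carry less of them. In bulk RNA, fewer cells of a type and less RNA per cell cannot be told apart.

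The summed estimated counts ran from 4772866 to 23525401 in Positive and from 4814966 to 52283556 in Input, with both 1223 libraries the shallowest, and the members had between 103 and 30929 counts in a library. Levels are CPM, the counts scaled to a common library size after TMM normalisation. All 15 of 15 pan-endothelial markers, which define the labelled cell type, were higher in Positive, with summed levels of 23730 to 25740 CPM in Positive and 3122 to 4132 CPM in Input. CD31 is the product of Pecam1, which had 1986, 2096 and 2031 CPM in Positive 1222, 1223 and 1227, while the Input libraries of these numbers had 266, 299.7 and 280.1 CPM. CD11b is the product of Itgam, which had 88.0, 54.8 and 53.0 CPM in Positive and 558, 274 and 506 CPM in Input. No tested marker of any cell type list was at 0 in a Positive library. Pericyte markers were higher as well, 9 of 10, with summed levels of 1685, 1339 and 2086 CPM in Positive 1222, 1223 and 1227 and 725, 864.0 and 849 CPM in Input; the count was 5 with both 1227 libraries left out. All 18 microglial markers were lower in Positive, and 7 of the 10 tested markers of perivascular macrophages (12 listed) were higher.

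Promoter sequence was available for 5 of the members whose letters can be given, in RefSeq's table on GRCm38.p6. The 250 bases before the start site of each are shown because Maf, itself one of the 7 genes, is a transcription factor with a known DNA half-site. Capitals mark that half-site, TGCTGA, on the printed strand; its reverse complement TCAGCA was searched as well and was in none of them.
Stab1 (chr14:31168642-31168891, minus strand): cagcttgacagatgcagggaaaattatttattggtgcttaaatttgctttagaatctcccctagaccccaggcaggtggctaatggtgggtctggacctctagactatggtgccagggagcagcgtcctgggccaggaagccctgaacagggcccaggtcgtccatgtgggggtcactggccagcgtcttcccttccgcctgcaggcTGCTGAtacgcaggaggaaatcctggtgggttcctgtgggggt
Dab2 (chr15:6299539-6299788, plus strand): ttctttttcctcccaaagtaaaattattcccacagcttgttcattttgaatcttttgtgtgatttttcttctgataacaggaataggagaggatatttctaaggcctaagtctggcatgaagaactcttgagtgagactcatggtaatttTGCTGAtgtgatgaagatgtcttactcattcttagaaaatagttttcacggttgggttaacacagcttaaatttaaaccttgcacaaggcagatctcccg
Cd36 (chr5:17835897-17836146, minus strand): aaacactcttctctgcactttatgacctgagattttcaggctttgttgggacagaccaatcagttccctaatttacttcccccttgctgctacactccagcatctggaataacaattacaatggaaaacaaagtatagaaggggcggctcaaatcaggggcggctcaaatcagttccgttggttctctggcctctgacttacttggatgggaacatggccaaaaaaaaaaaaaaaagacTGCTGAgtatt
Lyz2 (chr10:117282273-117282522, minus strand): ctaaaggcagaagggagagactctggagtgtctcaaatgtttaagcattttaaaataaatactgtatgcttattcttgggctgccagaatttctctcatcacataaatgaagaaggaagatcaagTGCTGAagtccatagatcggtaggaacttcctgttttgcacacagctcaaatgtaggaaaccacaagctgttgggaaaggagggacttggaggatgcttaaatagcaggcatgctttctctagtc
Cybb (chrX:9469325-9469574, minus strand): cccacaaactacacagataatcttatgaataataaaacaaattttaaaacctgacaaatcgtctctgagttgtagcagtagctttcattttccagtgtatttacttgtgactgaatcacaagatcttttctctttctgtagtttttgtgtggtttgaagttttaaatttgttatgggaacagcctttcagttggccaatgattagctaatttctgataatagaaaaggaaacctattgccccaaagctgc
The half-site was in 4 of these 5 windows, and 16.1% of 32817 RefSeq promoter windows of this length hold it on either strand. It lay 43 bases before the start site in Stab1, 100 in Dab2, 11 in Cd36 and 125 in Lyz2, counted to its first base. The Cd36 window precedes a start site inside the deposited span of the gene (17781690 to 17888959). The other windows printed adjoin the deposited span of their gene. A second start site of Dab2 (chr15:6386498-6386747) had none. It is not among the 5 windows, although the 16.1% counts each start site as a window of its own. The core letters GAGGAA, which the macrophage factor PU.1 binds, or their reverse complement TTCCTC were in the windows of Stab1 and Dab2, and in 23.3% of all windows; CCGGAAG, the letters of many ETS factors, or CTTCCGG were in none of the windows of these 5 genes and in 6.9% of all. A match is a description of letters and not of binding.

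Of the 7 members, 3 were higher in Positive (Stab1, Dab2 and Cd36), none was lower, and 4 did not pass (quasi-likelihood test of edgeR at an adjusted p of 0.05). Over all tested genes 26.1% were higher and 29.4% lower. The median log2 fold change was 0.74 over the members and 0.03 over all genes. All 7 were highest in Positive 1222 and lowest in Positive 1227, so each fold change below averages unequal libraries.

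The 3 genes of uptake rose. Stab1 (chromosome 14, 31139017 to 31168641, mm10) encodes stabilin-1, a scavenger receptor of sinusoidal endothelium and of macrophages. It had 1399, 623 and 364 CPM in Positive 1222, 1223 and 1227, while the Input libraries of these numbers had 346, 283 and 322 CPM. Every Positive library lay above every Input library, but Positive 1227 did so by little. The mean was 795 ± 538 CPM in Positive and 317 ± 31.9 CPM in Input (SD, n = 3 each), a log2 fold change of 1.33 ± 0.42 (SE; 95% interval 0.37 to 2.29; edgeR adjusted p = 0.0253). Without Positive 1222 it was 0.63 (adjusted p = 0.0427), and the call ended without Input 1223 (1.25, 0.0793), without Input 1227 (1.34, 0.0645), with both 1222 libraries left out (0.69, 0.0582) and with both 1223 libraries left out (1.40, 0.11). Stab1 overlaps Nt5dc2 on the other strand, which had 7.46, 19.3 and 6.62 CPM in Positive and 23.5, 14.2 and 19.6 CPM in Input; the use of strand in counting is not given.

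Dab2 (chromosome 15, 6299789 to 6440709) encodes a clathrin adaptor that carries receptors of the LDL receptor family into the cell. It had 486, 300.2 and 221 CPM in Positive 1222, 1223 and 1227, while the Input libraries of these numbers had 110.4, 125 and 102.5 CPM. The fractions did not overlap, and the lowest Positive library had 2.16 times the Input of its number. The log2 fold change was 1.58 ± 0.27 (95% interval 0.97 to 2.19; edgeR adjusted p = 0.0011), from 336 ± 136 CPM in Positive and 113 ± 11.2 CPM in Input. It kept its call in all 16 alternatives, at log2 1.19 to 1.81. Dab2 was the only member whose log2 fold change was above 1 within each of the 3 replicate numbers.

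Cd36 (chromosome 5, 17781690 to 17888959) encodes a scavenger receptor that also takes up long-chain fatty acids. It had 77.7, 35.0 and 18.6 CPM in Positive 1222, 1223 and 1227, while the Input libraries of these numbers had 12.3, 21.0 and 15.8 CPM. Positive 1227 lay within the range of Input. The log2 fold change was 1.46 ± 0.47 (95% interval 0.37 to 2.54; edgeR adjusted p = 0.0288), from 43.8 ± 30.5 CPM in Positive and 16.4 ± 4.35 CPM in Input. With the replicate number as a block it was 1.23 (adjusted p = 0.0711). The call also ended without Positive 1222 (0.70, 0.112), Input 1222 (1.28, 0.0812), Input 1227 (1.44, 0.0794), both libraries of 1222 (0.52, 0.273) or both of 1223 (1.78, 0.0725).

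**Figure D1:**
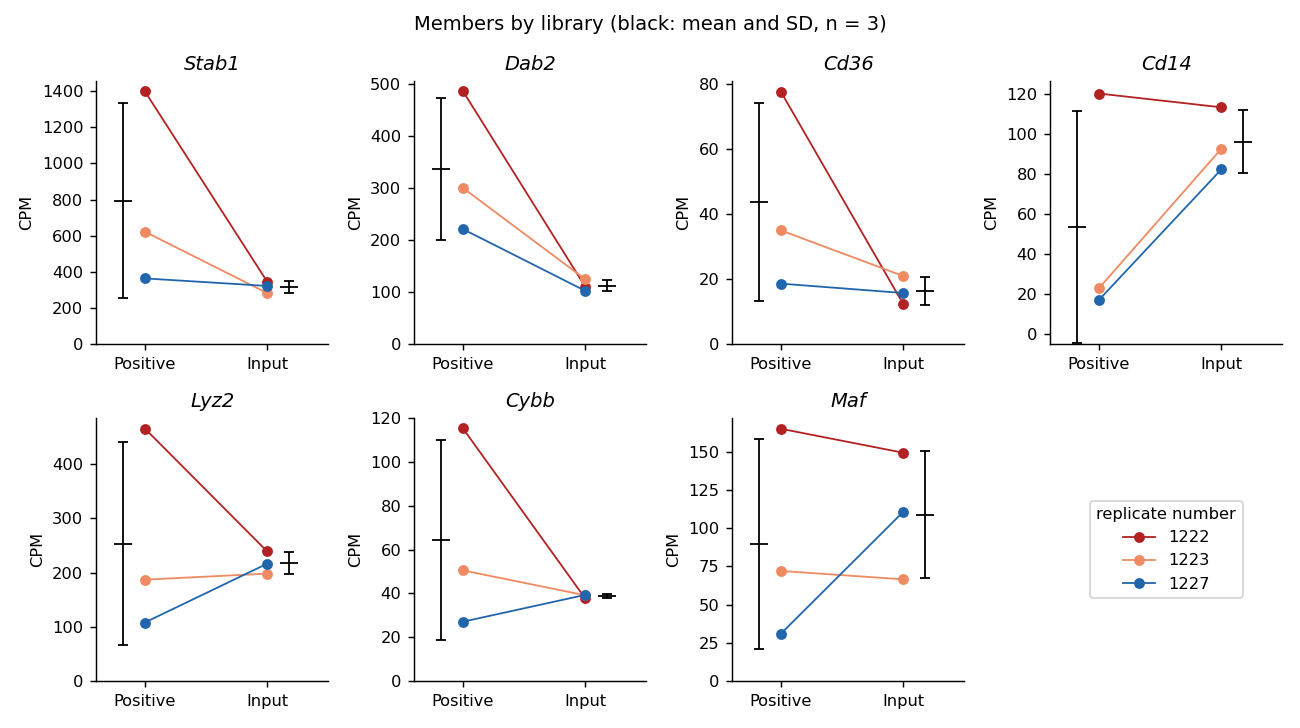
Level of each member in CPM (vertical axis, one scale per gene) in the Positive libraries on the left and the Input libraries on the right; coloured points are single libraries, lines join equal replicate numbers, and black marks are the mean and SD of 3 libraries. Positive 1222 is the highest and Positive 1227 the lowest Positive library for all 7 genes, while the Input libraries of Stab1, Dab2, Lyz2 and Cybb lie close together.

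The 3 innate myeloid genes did not pass in either direction. Cd14 (chromosome 18, 36725067 to 36726654), the co-receptor for lipopolysaccharide, had 120.4, 22.8 and 17.0 CPM in Positive 1222, 1223 and 1227, while the Input libraries of these numbers had 114, 92.7 and 82.4 CPM. Positive 1222 lay above all Input libraries and the other 2 Positive libraries far below them. The log2 fold change was -0.82 ± 0.64 (95% interval -2.28 to 0.64; edgeR adjusted p = 0.306). Without Positive 1222 it was -2.30 (adjusted p = 4.81e-05) and without both libraries of 1222 it was -2.17 (adjusted p = 0.00023), both past the threshold.

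Lyz2 (chromosome 10, 117277541 to 117282272) encodes the lysozyme of macrophages and other myeloid cells. It had 466, 187 and 108 CPM in Positive 1222, 1223 and 1227, while the Input libraries of these numbers had 239, 198 and 216 CPM. Again 1 Positive library was above all Input libraries and 2 were below them. The log2 fold change was 0.22 ± 0.45 (95% interval -0.80 to 1.24; edgeR adjusted p = 0.695); it was -0.58 without Positive 1222 (adjusted p = 0.0596) and -0.04 with the replicate block (adjusted p = 0.934).

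Its neighbour Lyz1, the lysozyme of Paneth cells in the gut, is a near-identical copy: the coding sequences of both have 444 bases without the stop codon and differ at 22 of them (95.0% identity, GENCODE M21), with a shared run of 118 bases. The counting could split reads between the copies. The last 100 bases before the start sites show how alike the genes are even outside the transcript, with the 8 differing bases in capitals (GRCm38.p6, minus strand).
Lyz2 (chr10:117282273-117282372): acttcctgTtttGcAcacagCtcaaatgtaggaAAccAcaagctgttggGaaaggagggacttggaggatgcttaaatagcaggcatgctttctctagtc
Lyz1 (chr10:117292869-117292968): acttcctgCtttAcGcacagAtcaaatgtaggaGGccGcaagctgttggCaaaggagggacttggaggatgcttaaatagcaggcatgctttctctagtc
The 50 bases next to the start site are identical. Lyz1 counts were 11.1%, 9.38% and 13.2% of Lyz2 counts in Positive 1222, 1223 and 1227, and 10.2%, 13.5% and 10.1% in Input. Lyz1 had 51.8, 17.5 and 14.2 CPM in Positive, while Input had 24.3, 26.8 and 21.9 CPM. As for Lyz2, 1 Positive library was above all Input libraries and 2 were below them. Input 1223 was the lowest Input library for Lyz2 and the highest for Lyz1. Lyz2 and Lyz1 had the same log2 fold change, 0.22.

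Cybb (chromosome X, 9435252 to 9469324) encodes the catalytic subunit of the phagocyte NADPH oxidase. It had 115.5, 50.6 and 27.1 CPM in Positive 1222, 1223 and 1227, while the Input libraries of these numbers had 37.7, 39.2 and 39.3 CPM. The Input libraries were within 1.04-fold of each other and the Positive libraries spread over 4.27-fold around them. The log2 fold change was 0.74 ± 0.44 (95% interval -0.27 to 1.75; edgeR adjusted p = 0.185). It was -0.03 without Positive 1222, and it passed without Positive 1227 (1.12, adjusted p = 0.0164) and without both libraries of 1227 (1.13, adjusted p = 0.0496).

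Maf (chromosome 8, 115703253 to 115706894) encodes a basic leucine zipper transcription factor with roles in macrophages, lens and lymphocytes. It had 165, 72.1 and 30.9 CPM in Positive 1222, 1223 and 1227, while the Input libraries of these numbers had 149.5, 66.5 and 111 CPM. Maf was the member with the largest spread in Input, 2.25-fold, and the fractions overlapped. The log2 fold change was -0.29 ± 0.53 (95% interval -1.51 to 0.93; edgeR adjusted p = 0.669). Without Positive 1222 it was -1.13 (adjusted p = 0.0415), past the threshold, and it was 0.13 without Positive 1227, 0.01 without Input 1222 and 0.14 without both libraries of 1227. GENCODE M21 places an antisense transcript, Gm15655, over Maf, and another, Gm16311, over Dab2; without a stated strand rule their reads cannot be told from those of the genes.

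What the 7 genes shared was the spread within Positive. Positive 1222 exceeded Positive 1227 by 2.20-fold for Dab2, 3.84 for Stab1, 4.17 for Cd36, 4.27 for Cybb, 4.32 for Lyz2, 5.34 for Maf and 7.09 for Cd14. All 7 were above 2-fold, against 3.51% of all tested genes. Highest in 1222 and lowest in 1227 were 7 of 7 members and 14.9% of all tested genes. The median coefficient of variation within Positive was 71.2% over the members and 14.65% over all genes, and within Input it was 10.05% over the members and 15.05% over all genes. The summed counts of Positive 1222, 1223 and 1227 were 23525401, 4772866 and 19708830, and the part of depth in the spread was not tested.

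**Figure D2:**
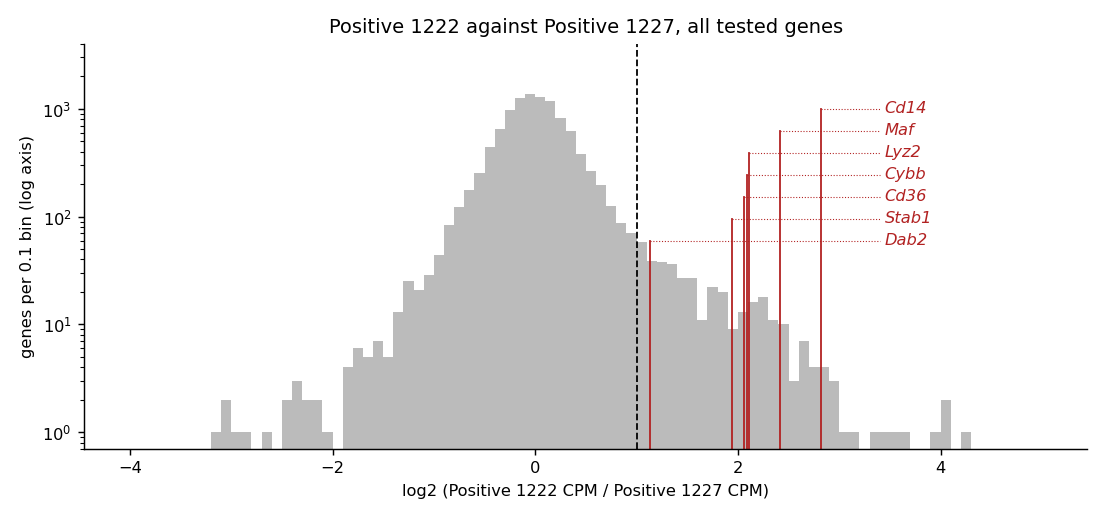
Histogram of the log2 ratio of Positive 1222 CPM to Positive 1227 CPM (horizontal axis) for the tested genes with counts in both, with the number of genes per bin on a log axis. The dashed line marks 2-fold, and red lines mark the 7 members, all to its right, from Dab2 (2.20-fold) to Cd14 (7.09-fold).

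Markers of perivascular macrophages moved with this spread. All 10 tested markers were more than 2-fold higher in Positive 1222 than in Positive 1227, and their summed level was 2212, 808 and 325 CPM in Positive 1222, 1223 and 1227, while the Input libraries of these numbers had 323, 368 and 277 CPM. Mrc1, the mannose receptor of these cells, had 1162, 418 and 160.3 CPM in Positive and 145, 162 and 117 CPM in Input. Its log2 fold change of 2.04 ± 0.59 (edgeR adjusted p = 0.0181) lost its call when Input 1227 (1.92), all of 1222 (1.02) or all of 1223 (2.33) was left out. The count of 7 higher macrophage markers was 3 with the replicate block, 4 by limma, 1 without Positive 1222, 2 without Input 1222, 2 without Input 1223 and 0 without Input 1227, all of 1222 or all of 1223. It rose without Positive 1227, where Pf4 (1.51) and Folr2 (1.94) passed as well, and without all of 1227, where Folr2 (1.89) did.

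Microglial markers were more than 2-fold higher in Positive 1222 than in Positive 1227 for 8 of 18, with summed levels of 3883, 2182 and 1906 CPM in Positive and 15670, 8823 and 15350 CPM in Input. Csf1r, the receptor for the macrophage growth factor CSF1, had 1076, 516 and 384 CPM in Positive, while Input had 2828, 1459 and 2683 CPM. Of the monocyte and neutrophil list 6 of 15 genes were tested, 3 of them more than 2-fold higher in Positive 1222 than in Positive 1227, with summed levels of 116, 81.2 and 59.8 CPM in Positive and 366, 159.8 and 237 CPM in Input. No tested marker of the pan-endothelial, pericyte, fibroblast, astrocyte, oligodendrocyte or neuron lists was more than 2-fold higher in Positive 1222 than in Positive 1227. The part of macrophage RNA in the members' values was not tested.

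Within replicate numbers the members differed in direction. In 1222 all 7 were higher in Positive than in Input, in 1223 there were 5, and in 1227 there were 3, with a median log2 difference over the members of 1.61, 0.37 and -0.54. The same median over all genes was 0.00, 0.05 and 0.02 in 1222, 1223 and 1227 (there on log2 of CPM plus 1). Stab1 differed by log2 2.02, 1.14 and 0.18, Dab2 by 2.14, 1.27 and 1.11, and Cd36 by 2.65, 0.74 and 0.24 in 1222, 1223 and 1227. These 3 genes were higher in Positive in all 3 numbers. Lyz2 differed by 0.96, -0.08 and -1.01, Cybb by 1.61, 0.37 and -0.54, Cd14 by 0.09, -2.02 and -2.28, and Maf by 0.14, 0.12 and -1.84. In each of these 4 the sign differed between numbers. Pecam1, by comparison, differed by 2.90, 2.81 and 2.86.

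**Figure D3:**
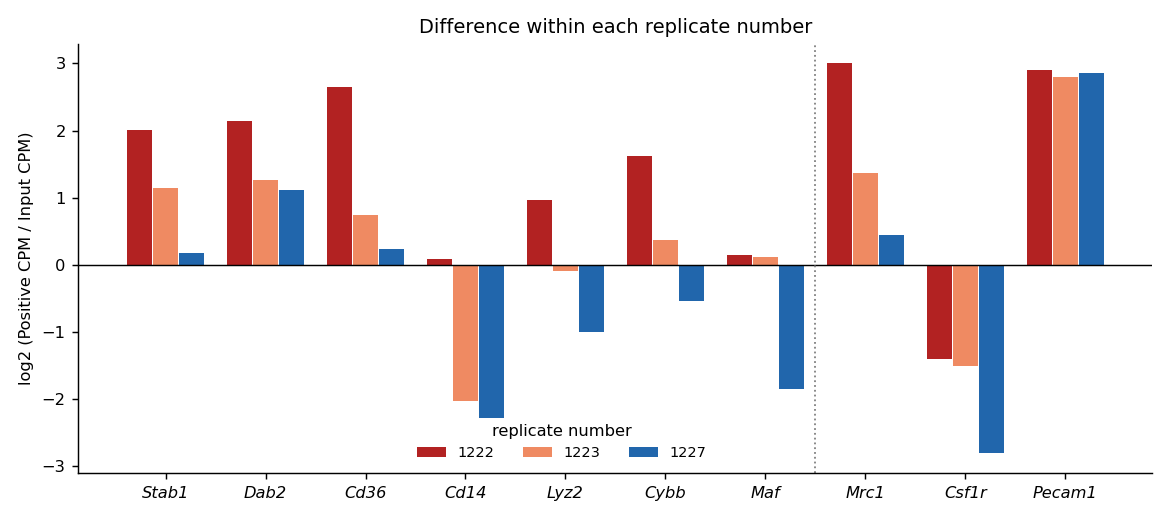
Log2 ratio of Positive CPM to Input CPM within each replicate number (bars, coloured by number) for the 7 members and, right of the dotted line, for Mrc1, Csf1r and Pecam1. Stab1, Dab2 and Cd36 are above 0 in all 3 numbers, the other 4 members change sign, and the bars of Pecam1 are nearly equal at 2.81 to 2.90.

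Differences between Positive libraries were also set against those of Mrc1, a measure chosen after the values were seen. From Positive 1227 to 1223 Mrc1 differed by 257 CPM and from 1223 to 1222 by 744 CPM. For each CPM of that difference Stab1 differed by 1.004 and 1.043 CPM, Cd36 by 0.064 and 0.057, Cybb by 0.091 and 0.087, Lyz2 by 0.31 and 0.37, Dab2 by 0.31 and 0.25 and Maf by 0.16 and 0.13. Among the members the values of the steps lay closest together for Stab1 and Cybb. They lay furthest apart for Cd14, with 0.023 and 0.13. Outside the members, Cd163 had 0.185 and 0.163, F13a1 0.306 and 0.331, and Csf1r 0.515 and 0.752. Itgam had 0.007 and 0.045, Pecam1 0.25 and -0.15, and Tek 0.354 and -0.071. With 3 libraries this is a description of their values.

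Member levels were also set against the summed markers of each cell type list in the same library. Relative to the macrophage markers, Stab1 stood at 63.2%, 77.1% and 112% in Positive 1222, 1223 and 1227, against 107%, 76.7% and 116% in Input. Dab2 stood at 22.0%, 37.2% and 68.1% in Positive, against 34.2%, 33.8% and 37.0% in Input. The summed macrophage markers were 6.84, 2.19 and 1.17 times as high in Positive as in Input in 1222, 1223 and 1227. Within each number a gene with equal levels in both fractions is therefore lower on this measure by construction. Stab1, Dab2 and Cd36 overlapped between the fractions on this measure. The other 4 members were lower in every Positive library than in every Input library, with 2.83% to 5.44% in Positive and 25.2% to 35.1% in Input for Cd14, 21.1% to 33.2% in Positive and 53.7% to 78.2% in Input for Lyz2, 5.22% to 8.33% in Positive and 10.6% to 14.2% in Input for Cybb, and 7.47% to 9.52% in Positive and 18.1% to 46.3% in Input for Maf. Relative to the microglial markers, Dab2 stood at 12.5%, 13.8% and 11.6% in Positive, a 1.19-fold range, and at 0.70%, 1.41% and 0.67% in Input. On that measure 6 members were higher in every Positive library than in every Input library, and Cd14 overlapped, with 3.10%, 1.05% and 0.89% in Positive and 0.72%, 1.05% and 0.54% in Input. The summed microglial markers in Positive 1222, 1223 and 1227 were 0.248, 0.247 and 0.124 times those in Input. A gene with equal levels in both fractions is therefore higher on this measure by construction. Relative to the pan-endothelial markers, whose sum was 6.23 to 7.67 times as high in Positive as in Input, all 7 members were lower in every Positive library than in every Input library. A gene whose own ratio of Positive to Input is smaller than that of these markers is lower on this measure by construction. The share of all genes that separated in this way was not counted for any of the lists. Without that share, these counts describe the ratios and are no result about the members.

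**Figure D4:**
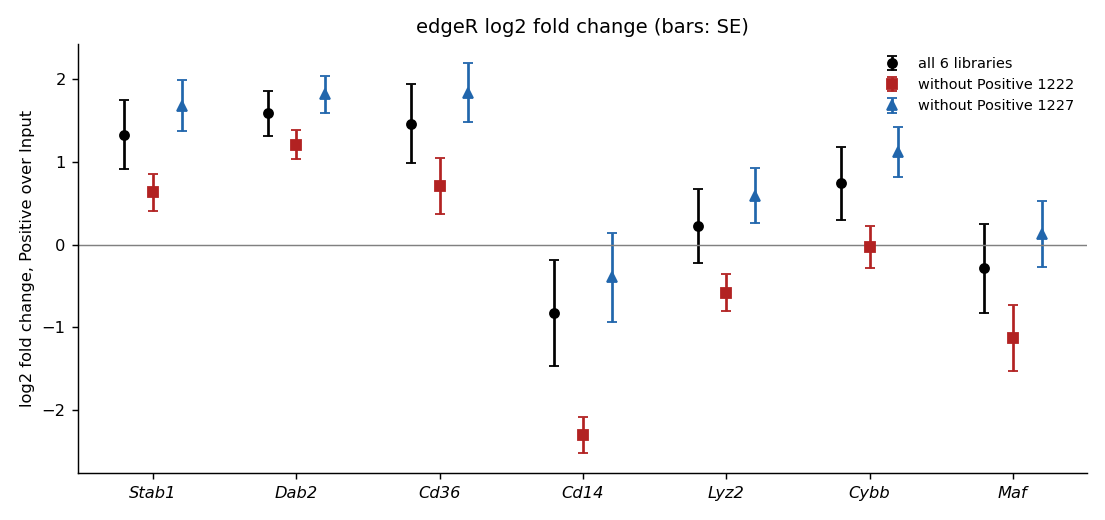
Log2 fold change of Positive over Input from edgeR (vertical axis, bars are SE) for each member with all 6 libraries (black), without Positive 1222 (red) and without Positive 1227 (blue). Dab2 stays above 1 in all 3 fits, while Lyz2, Cybb and Maf lie on different sides of 0 in different fits and Cd14 lies at -2.30 without Positive 1222.

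Genes with the most similar pattern over the 6 libraries were found among 5396 genes with a mean CPM above the median, by the smallest root mean square difference of centred log2 CPM. For Dab2 they were Tfrc, the transferrin receptor (0.17), Adamts1 (0.18) and Ifit2 (0.18). For Stab1 they were F13a1 (0.29), Snx2 (0.33) and Cd163 (0.34), and for Cd36 they were Cd163 (0.27), F13a1 (0.29) and Mrc1 (0.37); F13a1, Cd163 and Mrc1 are on the macrophage list. Cybb (0.13) and Lyz2 (0.17) shared Tgfbi as the nearest gene, and Ctsc was among the nearest 3 of both (0.24 and 0.25). The remaining gene was C4b for Cybb (0.296) and Itsn1, on the clathrin endocytosis list, for Lyz2 (0.241). The nearest to Maf was Fcgr2b (0.10), an inhibitory Fc receptor, followed by Emr1 (0.26), the table's older symbol of Adgre1, and P2rx7 (0.29). Cd14 was nearest to Pik3ap1 (0.32), Fyb (0.37) and Ptprc (0.41), the gene of the pan-leukocyte antigen CD45. Tfrc had 572, 419 and 308 CPM in Positive, while Input had 146, 141 and 105 CPM, and Tgfbi had 154, 63.9 and 33.4 CPM in Positive, while Input had 59.0, 59.7 and 56.3 CPM.

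Levels of different genes were compared per kilobase of exon. In Positive, Lyz2 was the highest member at 240 ± 178 CPM per kilobase, followed by Stab1 (77.3 ± 52.4), Dab2 (45.8 ± 18.5), Cd14 (33.6 ± 36.6), Maf (24.6 ± 18.9), Cd36 (12.2 ± 8.49) and Cybb (11.2 ± 7.97; SD, n = 3 each). Neighbours in that order differed by less than the larger of their SDs. In Input the order was Lyz2 (206 ± 19.4), Cd14 (60.6 ± 9.97), Stab1 (30.8 ± 3.10), Maf (29.9 ± 11.4), Dab2 (15.3 ± 1.53), Cybb (6.74 ± 0.155) and Cd36 (4.56 ± 1.21). There the steps from Lyz2 to Cd14, from Cd14 to Stab1, from Maf to Dab2, from Dab2 to Cybb and from Cybb to Cd36 exceeded the SD of each, and Stab1 and Maf were not separated. For scale, Pecam1 had 362 ± 9.80 CPM per kilobase in Positive and 50.1 ± 2.98 in Input.

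Other genes of the same pathways did not form one group. Of 18 scavenger receptor genes tested (25 listed) 4 were higher and 8 lower, with a median log2 fold change of -0.59 beside 0.03 over all genes. Scarb1, the receptor for high-density lipoprotein, rose by log2 2.55 ± 0.16, Scarf1 by 2.59 ± 0.23, Lrp8 by 1.74 ± 0.20 and Colec12 by 0.79 ± 0.21. Lrp1, a large endocytic receptor, fell by 2.45 ± 0.27 on the log2 scale, Sort1 fell by 1.19 ± 0.12, and Lrp10 had 0.19 ± 0.12 without passing. Among 24 clathrin endocytosis genes 7 were higher and 6 lower (median 0.03): the heavy chain Cltc rose by 0.58 ± 0.14 and the adaptor subunit Ap2b1 by 0.76 ± 0.13, while Dab1, the paralog of Dab2 in the reelin pathway of neurons, fell by 2.50 ± 0.25. Picalm (-0.21 ± 0.13) and Ap2m1 (0.02 ± 0.13) did not pass, except Picalm with scaling to library size alone (-0.37), and the count of 6 lower genes was 3 with both 1227 libraries left out.

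Of 17 genes of fatty acid uptake tested (21 listed) 5 were higher and 8 lower (median -0.38). Mfsd2a, the lipid transporter of the blood-brain barrier, rose by log2 2.15 ± 0.13, Acsl5 by 1.47 ± 0.15 and Plin2 by 1.24 ± 0.15; the transporter Slc27a1 (-2.94 ± 0.17) and the acyl-CoA synthetases Acsl3 (-2.08 ± 0.13) and Acsl6 (-3.70 ± 0.21) fell. In lipopolysaccharide sensing 6 of 17 tested genes (21 listed) were higher and 5 lower (median 0.23). The NF-kB subunits Rela (0.93 ± 0.13) and Nfkb1 (1.06 ± 0.19) and the kinase Irak1 (0.95 ± 0.15) rose, and Ly86 (-2.33 ± 0.33) and Lbp (-3.26 ± 0.17) fell. Tlr4, the receptor that Cd14 serves, had 0.33 ± 0.32 without passing (adjusted p = 0.405); it was named after its value was seen. With both 1227 libraries left out 3 genes of this list were lower.

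The other NADPH oxidase genes were mostly lower, 4 of 7 tested (13 listed), with 1 higher and a median log2 fold change of -1.59. Ncf1, a cytosolic subunit that works with Cybb, fell (-2.25 ± 0.45), and Cyba, its partner in the membrane, had 0.34 ± 0.13 without passing (adjusted p = 0.0504). Cyba passed with the replicate block (0.34), by DESeq2 (0.33), by limma (0.41) and without Positive 1222 (0.43). Rac1 (0.50 ± 0.14), the gene that rose, did not pass without Positive 1223 (0.44) or Positive 1227 (0.50), or with both libraries of 1222 (0.47), 1223 (0.48) or 1227 (0.56) left out, nor with scaling to library size alone (0.35) or a raw minimum of 50 in all libraries (0.36). Lrrc33, the table's older symbol of Nrros, had 0.17 ± 0.22. Of 10 lysosomal genes 1 was higher and 5 lower (median -0.61), with Psap (-1.06 ± 0.13), Ctss (-2.54 ± 0.30) and Lgmn (-1.89 ± 0.26) lower, the protease Ctsh higher (1.18 ± 0.13) and Grn at -0.43 ± 0.24 without passing, though it passed without Positive 1222 (-0.64) and without Input 1223 (-0.62).

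Of 9 relatives of Maf tested (11 listed) 3 were higher and 2 lower (median 0.34). Nfe2l1 rose (1.21 ± 0.14), and Nfe2l2 (0.42 ± 0.22) and Bach1 (0.34 ± 0.18) did not pass, except Bach1 without Input 1222 (0.50). Of 12 myeloid transcription factors 2 were higher, Klf4 (2.28 ± 0.24) and Fli1 (2.01 ± 0.24), which endothelial cells also express, and 5 were lower (median -0.67), among them Sfpi1 (-1.90 ± 0.35), the table's older symbol of Spi1, which encodes PU.1 and was named after its value was seen. Nr4a1, an immediate early gene, had 342 CPM in Positive 1222, 89.8 in Positive 1223 and 79.8 in Positive 1227, and 150.5, 212 and 52.2 CPM in Input, and did not pass (0.32 ± 0.63). Positive 1222 was more than 2-fold above Positive 1227 for 7 of these 12 genes and for 0 of the 9 relatives of Maf.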

How the data were processed

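RNA of the 3 Positive and 3 Input libraries had been sequenced as directional total RNA, per the labels. The authors deposited estimated counts per gene (raw columns, 94.2% not whole within 0.001) and log2 normalised values. The table was limited, per the file headers, to genes with a raw value of 50 or more in every library of 1 or both fractions; all 7 members passed in both fractions. The build was mm10 and a tool named DESeq was used, per the submitters' processing notes; the sources used here do not name the aligner, the counter or the use of strand.

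After rounding of the deposited estimated counts, the test was that of edgeR 4.0.16 in R 4.3.3, with TMM factors (0.94 to 1.082), filterByExpr with a minimum count of 10, which removed no gene, a quasi-likelihood comparison of Positive with Input, and Benjamini-Hochberg adjustment over 10989 genes at 0.05. SE is the log2 fold change over the root of the F statistic. The deposited log2 values served only as an alternative, in limma 3.58.1; DESeq2 1.42.0 was another. The edgeR step was tested on simulated data with the same dispersion for every gene, which does not cover genes that spread as widely as the members. Exon length is the GENCODE M21 exon union within the deposited gene span.

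Equal replicate numbers correlated across genes in their deviations from the fraction means at 0.48 (1222), 0.25 (1223) and 0.30 (1227), and other numbers at 0.04 or less, so the numbers were taken to pair the libraries. The main test left this pairing out. The block was an alternative, with 2 members higher instead of 3. The series text calls the replicates biological, and no source used here says that each number is 1 mouse; p-values measure the spread between these libraries. Besides the members, named genes are the most abundant genes of each list and those called against its main direction, the genes nearest to each member in pattern, the genes of the gate and the copy Lyz1; a few of those the rule selects are left out. Members and lists were chosen with earlier results of these data known. Of 233 list genes 195 matched by symbol and 2 by Entrez identifier; 36 were not analysed here. The values of 1 further gene under this rule are withheld from the text.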

Additional observations from a re-analysis of the deposited data

How the results depend on the processing

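The count of 3 members higher ran from 1 to 4 and that of 0 members lower from 0 to 2 when single libraries or both libraries of a number were left out; in the other alternatives they were 2 to 3 and 0. Over all genes 2870 were higher and 3227 lower; leaving out libraries gave 1741 to 2755 higher and 2393 to 3207 lower, and 2066 were lower where a raw value of at least 50 in all libraries was required, which left 8530 genes. Dab2 passed in all 16 alternatives, Stab1 in 12, Cd36 in 10, Cd14 and Cybb in 2 each, Maf in 1 and Lyz2 in none. With libraries left out, log2 fold changes ran from -0.58 to 0.59 for Lyz2, from -0.055 to 1.13 for Cybb and from -1.13 to 0.14 for Maf. With the replicate block Lyz2 had -0.039 and Cd36 lost its call (1.23), and no other member's call changed. Scaling to library size alone moved the median of all genes by -0.16 (log2) and turned no member's direction (Lyz2 0.06). Leaving out the filter changed nothing, since the table was already filtered. The causes were not tested. Every member had at least 103 counts in each library; 3 libraries a fraction limit the precision.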
